A study of Mus musculus with 8 samples.

Results

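RNA of 8 member genes, *Enpep*, *Ly75*, *Vcam1*, *Cd274*, *Slc46a2*, *Trpm2*, *Tbata* and *Crip3*, was measured in thymic epithelial cells (TECs) and their cultures. They are 8 of the 56923 genes counted in each library. The members were chosen as markers of cortical TECs or as genes lost when TECs leave the thymus. The comparisons of *in vivo* TECs with cultures therefore describe how the genes were chosen and carry no test, whereas the comparisons between cultures were tested. Earlier results of these data were known when the members were chosen, so the calls between cultures cannot be taken as independent of that choice. Bulk RNA sequencing covered 4 groups with 2 libraries each, all from wild-type C57BL/6J mouse embryonic (E16.5) thymi. No treatment was named besides the culture conditions. *In vivo* TECs were sorted as EpCAM-positive cells and lysed without culture. 2D-cultured TECs were sorted cells kept for 3 days on laminin-coated plastic in TEC medium, an organoid basal medium with the growth factor FGF7. D3 and D7 organoids were sorted cells grown in Matrigel, a basement membrane hydrogel, in TEC medium for 3 or 7 days, with the ROCK inhibitor thiazovivin over the first 2 days. D3 organoids and 2D cultures thus share the day and differ in format, and D7 organoids and 2D cultures differ in both. The paper does not state whether the 2D cultures also received thiazovivin, so the inhibitor may differ as well. The 2D cultures were collected when confluent. In bulk RNA, fewer cortical cells and less RNA per cell cannot be told apart.

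The thymic cortex is where incoming progenitors commit to the T-cell lineage and where immature thymocytes are positively selected on self-peptides. Cortical TECs supply Notch ligands, chemokines and a dedicated protein-degradation machinery, much of it under the transcription factor Foxn1. Of the 8 genes, *Enpep* and *Ly75* encode the surface antigens Ly51 and CD205, by which cortical TECs are gated in flow cytometry. *Vcam1* and *Cd274* encode surface proteins that thymocytes and T cells bind. *Slc46a2* and *Trpm2* encode a membrane transporter and an ion channel. *Tbata* and *Crip3* encode intracellular proteins, and the full name of *Tbata* and another name of *Crip3* refer to the thymus.

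All 8 genes are protein coding, and their positions are given on GRCm39. *Enpep* (ENSMUSG00000028024) lies on the minus strand at chr3:129062824-129126369, and *Vcam1* (ENSMUSG00000027962) on the same strand at chr3:115903598-115923355. *Ly75* (ENSMUSG00000026980) is at chr2:60122441-60213682 on the minus strand. *Cd274* (ENSMUSG00000016496) is at chr19:29344529-29365495 on the plus strand. *Slc46a2* (ENSMUSG00000028386) is at chr4:59904881-59915063 on the minus strand. *Trpm2* (ENSMUSG00000009292, minus strand) and *Tbata* (ENSMUSG00000020096, plus strand) are both on chromosome 10, at chr10:77743556-77806405 and chr10:61007714-61024624. *Crip3* (ENSMUSG00000023968) is at chr17:46739844-46742706 on the plus strand. The first bases of *Cd274* overlap the start of *Plgrkt* on the opposite strand, and the start of *Tbata* overlaps the opposite-strand gene *Sgpl1*. The 3′ ends, which QuantSeq libraries read, lie apart in both cases. The 3′ end of *Trpm2* is overlapped on the opposite strand by the predicted gene *Gm66732* (chr10:77739260-77745283), which was not analysed here. The sources used here do not say whether counting used the strand. *Plgrkt* had 122 to 2308 counts per library and *Sgpl1* had 391 to 2369. Of the 3800 different 50-base words in the last 500 bases of *Trpm2* transcripts, 7 (0.184%) were shared with the predicted genes *Gm32391* and *Gm56354*, and the other members shared none with any gene.

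Promoters of 6 of the 8 members, all but *Vcam1* and *Crip3*, were read from the RefSeq table of GRCm38.p6, from 250 bases before to 50 bases after each annotated start. They were searched on both strands for GACGC, the core sequence known to be bound by Foxn1. The motif was found in 2 of 6 windows (33.3%), those of *Enpep* and *Trpm2*, beside 8932 of all 32851 promoters of that length (27.2%). Both matches are on the strand of the gene, 8 bases before the start in *Enpep* and 23 bases before it in *Trpm2*. These 2 windows are shown with the motif in capitals, followed by *Tbata* and *Slc46a2*, which had the largest differences between D7 organoids and 2D cultures among these members without a match. The windows are chr3:129332700-129332999 (*Enpep*, minus strand), chr10:77969823-77970122 (*Trpm2*, minus strand), chr10:61171714-61172013 (*Tbata*, plus strand) and chr4:59915007-59915306 (*Slc46a2*, minus strand), all on GRCm38.p6 and written in the direction of transcription, 5′ to 3′.
Enpep: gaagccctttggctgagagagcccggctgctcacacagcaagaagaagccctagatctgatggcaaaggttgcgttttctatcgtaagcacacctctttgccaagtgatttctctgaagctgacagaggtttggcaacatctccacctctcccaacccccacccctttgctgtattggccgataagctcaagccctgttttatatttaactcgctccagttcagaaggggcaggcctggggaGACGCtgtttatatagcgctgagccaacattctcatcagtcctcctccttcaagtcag
Trpm2: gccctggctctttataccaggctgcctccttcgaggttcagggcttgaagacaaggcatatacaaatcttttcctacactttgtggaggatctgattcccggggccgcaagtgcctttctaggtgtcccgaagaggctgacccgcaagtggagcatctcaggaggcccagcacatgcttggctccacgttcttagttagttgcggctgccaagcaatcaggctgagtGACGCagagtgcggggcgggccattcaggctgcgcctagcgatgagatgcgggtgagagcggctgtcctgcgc
Tbata: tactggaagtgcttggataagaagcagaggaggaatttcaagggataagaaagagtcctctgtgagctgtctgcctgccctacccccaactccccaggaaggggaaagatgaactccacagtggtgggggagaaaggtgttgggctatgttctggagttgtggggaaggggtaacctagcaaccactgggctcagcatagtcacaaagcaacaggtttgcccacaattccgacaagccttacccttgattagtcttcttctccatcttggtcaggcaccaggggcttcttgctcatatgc
Slc46a2: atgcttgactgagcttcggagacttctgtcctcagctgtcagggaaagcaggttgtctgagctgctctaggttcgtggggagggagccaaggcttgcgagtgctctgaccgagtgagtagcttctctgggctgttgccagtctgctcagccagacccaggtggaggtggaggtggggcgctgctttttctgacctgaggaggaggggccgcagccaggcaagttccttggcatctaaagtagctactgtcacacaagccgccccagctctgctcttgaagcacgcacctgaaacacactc
The 4 windows also differed in base content, with 51.3% G and C in *Enpep*, 58.3% in *Trpm2*, 51.7% in *Tbata* and 58.3% in *Slc46a2*. The median was 55.5% over the 6 member promoters and 52.7% over all promoters in the table.

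The libraries held 5084715 to 7612532 counts, with 16748 to 19943 genes detected and 22.7% to 29.4% of counts on ribosomal RNA genes. The paired libraries of each group were not copies, since the chi-square between them was 7.43 to 9.42 times its degrees of freedom. The study counts its replicates as mice, the labels do not say whether a mouse was shared between groups, and p-values measure the spread between these samples. Levels are given as CPM, the count relative to the library size after scaling by TMM in edgeR, and are compared between libraries, not between genes. The labelled cell type was checked on genes of the TEC lineage, and *Epcam*, *Krt8*, *Krt18*, *Foxn1* and *Pax1* were detected in every library. Thymocyte markers (10 genes) summed to 297 to 676 CPM *in vivo* and to 2.36 to 9.29 CPM in the cultures, with *Rag2* and *Ptcra* at 0 in all 3 cultures. Mesenchymal markers (7 genes) summed to 45.4 to 46.1 CPM *in vivo*, 29.7 to 35.8 CPM in 2D, 17.9 to 21.8 CPM in D3 organoids and 70.6 to 79.5 CPM in D7 organoids. In D7 organoids, *Dcn* made up 52.3 ± 1.82 CPM (SD, n = 2) of that sum, and *Pdgfra* was at 0.533 ± 0.474 CPM (SD, n = 2). Myeloid and dendritic markers (7 genes) summed to 14.6 to 19.8 CPM in D7 organoids and to at most 5.94 CPM elsewhere. In D7 organoids that sum was *Lyz2*, at 12.2 and 10.3 CPM, and *Cd14*, at 7.69 and 4.35 CPM, with the other 5 (*Itgax*, *Csf1r*, *Itgam*, *Adgre1* and *Flt3*) at 0. Endothelial markers (5 genes) reached at most 5.22 CPM and erythroid markers (6 genes) at most 12.0 CPM, both *in vivo*.

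*In vivo* TECs had the highest level of every member. Both *in vivo* libraries lay above both libraries of the culture for 8 of 8 genes against D7 organoids, D3 organoids and 2D cultures alike. Among the 14504 genes tested, that held for 33.9% against D7 organoids, 30.9% against D3 organoids and 36% against 2D cultures. As a share of the *in vivo* mean, D7 organoids had 7.83% (*Tbata*) to 56.3% (*Crip3*), with a median over the 8 genes of 12.1%. D3 organoids had 0.0649% (*Tbata*) to 6.15% (*Slc46a2*), with a median of 1.88%, and 2D cultures had 0% (*Trpm2*) to 23.4% (*Enpep*), with a median of 1.52%. The median log2 difference between *in vivo* TECs and the culture over the 8 genes was 3.06 for D7 organoids, 5.67 for D3 organoids and 6.04 for 2D cultures. Over all genes tested it was -0.01, 0.01 and 0.06. In these contrasts the thymocyte markers also moved with the members, and their part in the values was not tested. Between the 2 *in vivo* libraries, the summed thymocyte markers were higher in replicate 1, and of the members *Tbata* and *Enpep* were higher there, while the other 6 were higher in replicate 2.

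**Figure D1:**
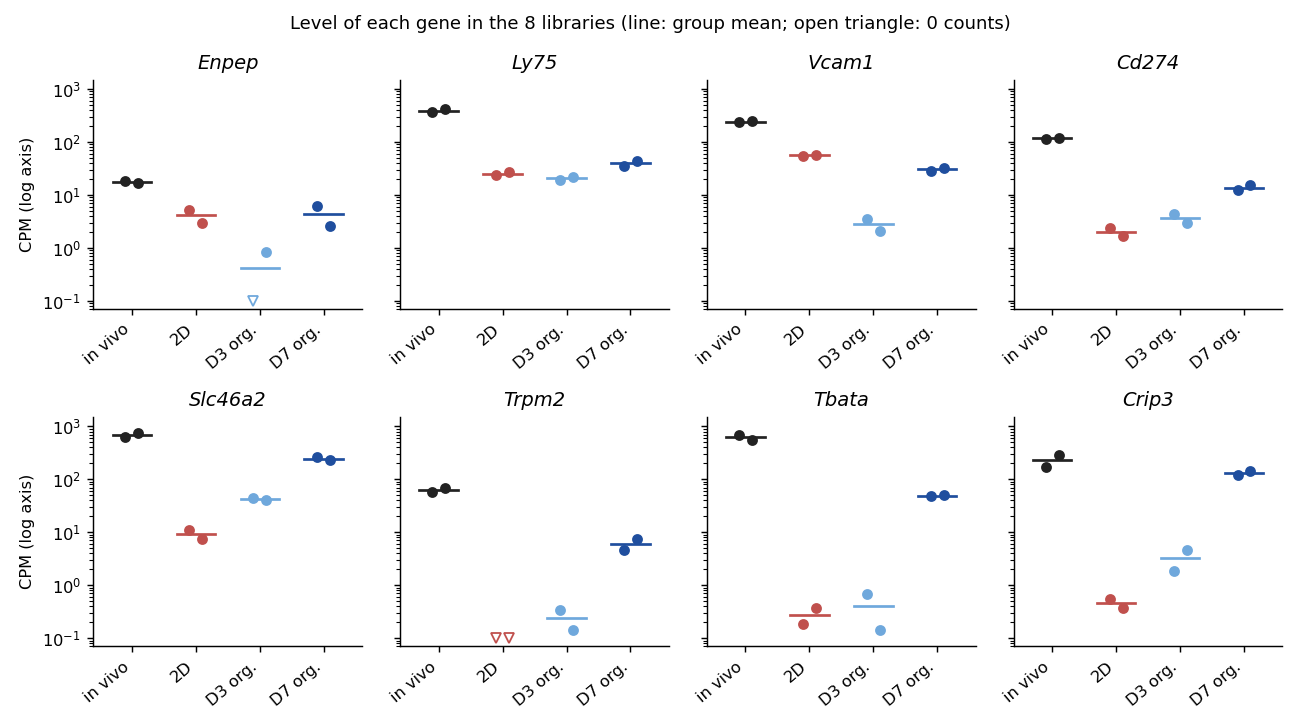
Level of each of the 8 genes in each library, in CPM on a log axis, by group (in vivo, 2D, D3 organoids, D7 organoids). Points are libraries, lines are group means over 2 libraries and open triangles drawn at the bottom are libraries with 0 counts. The *in vivo* points are the highest in all 8 panels, and the 2 *Trpm2* libraries from 2D are at 0.

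**Figure D2:**
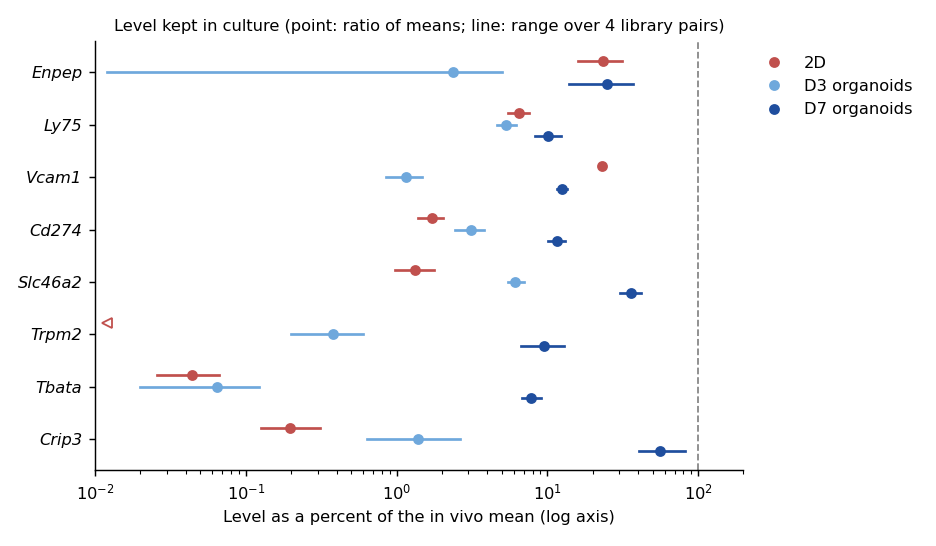
Level of each gene in the 3 cultures as a percent of its *in vivo* mean, on a log axis. Points are ratios of group means, lines run from the lowest to the highest of the 4 library pairs (an end at 0 is drawn at the left edge), and the open triangle marks a mean of 0. *Crip3* in D7 organoids (56.3%) is nearest to the *in vivo* level, drawn as a dashed line at 100.

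Between cultures, D7 organoids differed from 2D cultures in 7 of the 8 genes, with 6 higher (*Ly75*, *Cd274*, *Slc46a2*, *Trpm2*, *Tbata* and *Crip3*) and *Vcam1* lower, by edgeR's quasi-likelihood test at an adjusted p of 0.05. Of all genes tested, 24.4% were higher and 21.1% lower in that comparison. D3 organoids differed from 2D cultures in 4 genes, with *Slc46a2* and *Crip3* higher and *Enpep* and *Vcam1* lower, beside 19.3% of all genes higher and 19.1% lower. From D3 to D7 organoids, all 8 genes rose, beside 10.9% of all genes higher and 9.91% lower. The median log2 fold change of the 8 genes was 3.74 for D7 organoids over 2D cultures (3.56 with *Trpm2*, which had no counts in 2D, at its lower bound) and 0.10 for all genes. For D7 over D3 organoids it was 3.36, beside 0.06 for all genes. For D3 organoids over 2D cultures, it was 0.45 over the 7 genes other than *Trpm2*, beside 0.03 for all genes. The comparisons of D7 and of D3 organoids with 2D cultures share the 2D libraries, and each organoid group enters 2 of the 3 comparisons. The comparisons are therefore not independent of each other. With no scaling beyond library size, the median of all genes moved by 0.20 for D7 organoids over 2D and by 0.26 for D3 organoids over 2D, and the share of called genes that were higher went from 53.7% to 65.2% and from 50.3% to 67.2%. Under that scaling the members' directions held in the 3 comparisons, and *Cd274* joined those called higher in D3 organoids.

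**Figure D3:**
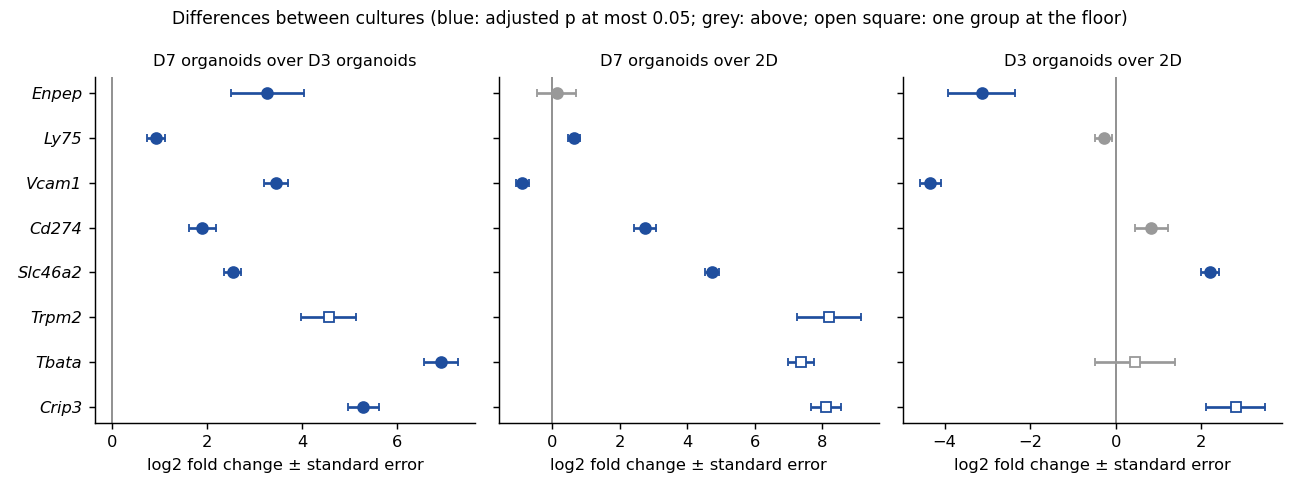
Log2 fold change of each gene between cultures (edgeR, 2 libraries per group). Bars are an approximate standard error, the fold change divided by the square root of the test's F statistic. Blue marks an adjusted p of at most 0.05, grey a higher one, and open squares folds against a group with at most 3 counts in each library, whose size depends on the prior count; *Trpm2* in D3 organoids over 2D, with both groups at that floor, is not drawn. All 8 points are right of 0 for D7 over D3 organoids, and *Vcam1* is left of 0 in both comparisons with 2D.

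*Enpep* encodes glutamyl aminopeptidase, a membrane enzyme that trims acidic residues from peptides such as angiotensin. It was the least counted member. Its level was 18.5 and 16.8 CPM *in vivo*, 5.27 and 2.97 CPM in 2D, 0 and 0.839 CPM in D3 organoids, and 6.20 and 2.57 CPM in D7 organoids. The counts behind these values were 106 and 119 *in vivo*, 29 and 16 in 2D, 0 and 6 in D3 organoids, and 50 and 13 in D7 organoids. The 2D and D7 libraries overlapped and both D3 libraries lay below them. D7 organoids and 2D cultures were not separated (log2 fold change 0.13, SE 0.58, adjusted p = 0.88), and leaving out 2D replicate 2 or D7 replicate 1 turned the sign, to -0.22 and -0.68. D3 organoids were lower than 2D cultures (log2 fold change -3.14, SE 0.79, adjusted p = 0.0043), a call that was lost without 2D replicate 1 (-2.67, adjusted p = 0.050), with adjusted p between 3.8e-05 and 0.050 over all alternatives. D7 organoids were higher than D3 organoids (log2 fold change 3.27, SE 0.77, adjusted p = 0.0062). That call was lost without D3 replicate 1 (2.41, adjusted p = 0.059) or D7 replicate 1 (2.46, adjusted p = 0.084), with adjusted p from 3.1e-05 to 0.084 over all alternatives. Without D3 replicate 2, which held all 6 counts of the D3 group, the fitted values were -7.69 and 7.78.

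*Ly75* encodes CD205, an endocytic receptor of the mannose receptor family also found on dendritic cells. Its level was 361 and 422 CPM *in vivo*, 23.3 and 27.5 CPM in 2D, 19.4 and 22.2 CPM in D3 organoids, and 35.1 and 44.5 CPM in D7 organoids. The 3 cultures spanned the narrowest range of percentages among the members, from 5.32% to 10.2% of *in vivo*, and no culture library overlapped the *in vivo* ones. D7 organoids were higher than D3 organoids (log2 fold change 0.92, SE 0.19, adjusted p = 0.0025) and higher than 2D cultures (0.64, SE 0.19, adjusted p = 0.011). The second call was lost without 2D replicate 1 (0.53, adjusted p = 0.10) or D7 replicate 2 (0.47, adjusted p = 0.13), with adjusted p from 0.0016 to 0.13 over all alternatives. Between D3 organoids and 2D cultures the log2 fold change was -0.28 (SE 0.20, adjusted p = 0.28), and the libraries did not overlap. The myeloid and dendritic markers also had their highest sum in D7 organoids, where *Ly75* had its highest level in culture. That sum was *Lyz2* and *Cd14* alone, with *Itgax*, *Flt3*, *Itgam*, *Csf1r* and *Adgre1* at 0 there. The part of such cells in the *Ly75* level was not tested.

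*Vcam1* encodes an adhesion molecule that binds integrins on lymphocytes. Its level was 239 and 247 CPM *in vivo*, 55.5 and 57.0 CPM in 2D, 3.55 and 2.10 CPM in D3 organoids, and 28.5 and 32.4 CPM in D7 organoids. The 4 groups did not overlap, and unlike the other members *Vcam1* had its highest culture level in 2D. It was lower in D7 organoids than in 2D cultures (log2 fold change -0.89, SE 0.19, adjusted p = 0.00088) and lower still in D3 organoids (-4.33, SE 0.25, adjusted p = 5.2e-10). From D3 to D7 organoids it rose by 3.45 on the log2 scale (SE 0.25, adjusted p = 1.2e-07).

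*Cd274* encodes PD-L1, the ligand of the inhibitory T-cell receptor PD-1. Its level was 116 and 119 CPM *in vivo*, 2.36 and 1.67 CPM in 2D, 4.39 and 2.94 CPM in D3 organoids, and 12.2 and 15.2 CPM in D7 organoids. The groups did not overlap and their order was *in vivo*, D7 organoids, D3 organoids, 2D. D7 organoids were higher than 2D cultures by 2.74 on the log2 scale (SE 0.32, adjusted p = 2.7e-06) and than D3 organoids by 1.90 (SE 0.28, adjusted p = 0.00022). The step from 2D cultures to D3 organoids did not pass (log2 fold change 0.84, SE 0.38, adjusted p = 0.092). With no scaling beyond library size it passed (1.09, adjusted p = 0.027), in a range of 0.027 to 0.39 over all alternatives. The opposite-strand neighbour *Plgrkt* had 2308 and 2263 counts *in vivo*, 172 and 122 in 2D, 293 and 340 in D3 organoids, and 281 and 161 in D7 organoids, so its counts in D7 organoids were below those in D3 organoids.

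*Slc46a2* encodes a solute carrier, also called thymic stromal cotransporter, known for its expression in cortical TECs. Its level was 631 and 757 CPM *in vivo*, 11.1 and 7.43 CPM in 2D, 43.9 and 41.4 CPM in D3 organoids, and 266 and 229 CPM in D7 organoids. The groups did not overlap, and each step of the order 2D, D3 organoids, D7 organoids passed the test. D3 organoids were higher than 2D cultures by 2.20 on the log2 scale (SE 0.21, adjusted p = 3.0e-07) and D7 organoids were higher than D3 organoids by 2.54 (SE 0.18, adjusted p = 9.2e-08). Between D7 organoids and 2D cultures the log2 fold change was 4.74 (SE 0.21, adjusted p = 2.6e-11). D7 organoids had 35.7% of the *in vivo* level, the second highest share after *Crip3*.

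*Trpm2* encodes a calcium-permeable channel that opens in response to ADP-ribose and oxidative stress. Its counts were 325 and 497 *in vivo*, 0 and 0 in 2D, 2 and 1 in D3 organoids, and 38 and 37 in D7 organoids, or 56.6 and 70.1, 0 and 0, 0.338 and 0.140, and 4.71 and 7.32 CPM. Detection in culture above a few counts was thus seen in the D7 organoids alone. Against a limit of 3 counts over the whole 2D group, the level was at least 20.7-fold higher in D7 organoids and at least 232-fold higher *in vivo*. Exact 95% intervals, which add the counting error of the higher group, start at 16.5-fold and 189-fold. D7 organoids were called higher than 2D cultures (adjusted p = 3.5e-06) and than D3 organoids (adjusted p = 6.7e-05). The pooled counts of D7 over D3 organoids gave a ratio of 24.9 (95% interval 8.20 to 123, exact and for counting error alone). The fitted log2 fold change of that comparison, 4.56 (SE 0.58), went to 5.21 without D3 replicate 1 and to 3.98 without D3 replicate 2. D3 organoids and 2D cultures were both at or under the floor, so no fold is given.

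*Tbata*, the thymus, brain and testes associated gene, encodes a protein known from TECs as SPATIAL. Its counts were 4032 and 3934 *in vivo*, 1 and 2 in 2D, 4 and 1 in D3 organoids, and 385 and 256 in D7 organoids. These are 702 and 555 CPM *in vivo*, 0.182 and 0.371 CPM in 2D, 0.676 and 0.140 CPM in D3 organoids, and 47.8 and 50.6 CPM in D7 organoids. The 2D and D3 libraries overlapped near 0, well below both D7 libraries. D7 organoids were higher than D3 organoids by 6.93 on the log2 scale (SE 0.35, adjusted p = 1.7e-09) and were also called higher than 2D cultures (adjusted p = 1.4e-10). With 4 and 1 counts in the D3 libraries, the first value went to 8.27 without D3 replicate 1 and to 6.07 without D3 replicate 2. The ratio of pooled counts was 128 (95% interval 54.4 to 395) for D7 over D3 organoids and 177 (60.4 to 862) for D7 organoids over 2D cultures. D3 organoids and 2D cultures were not separated (log2 fold change 0.45, SE 0.93, adjusted p = 0.75), and the sign turned without D3 replicate 1 (-0.89).

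*Crip3* encodes a LIM-domain protein also called thymus LIM protein. Its counts were 1002 and 2073 *in vivo*, 3 and 2 in 2D, 11 and 33 in D3 organoids, and 960 and 728 in D7 organoids. The levels were 174 and 292 CPM *in vivo*, 0.546 and 0.371 CPM in 2D, 1.86 and 4.61 CPM in D3 organoids, and 119 and 144 CPM in D7 organoids. The groups did not overlap, and the D7 libraries came closer to the lower *in vivo* library than those of any other member did. D7 organoids were higher than D3 organoids by 5.29 on the log2 scale (SE 0.33, adjusted p = 2.3e-08), and were called higher than 2D cultures (adjusted p = 2.7e-10) with a ratio of pooled counts of 280 (95% interval 120 to 864). D3 organoids were called higher than 2D cultures (log2 fold change 2.81, SE 0.69, adjusted p = 0.0037). That call was lost with limma-voom (2.53, adjusted p = 0.16) and without D3 replicate 2 (1.99, adjusted p = 0.087), in a range of 1.8e-06 to 0.16 over all alternatives. Without D3 replicate 2, D7 organoids were higher than D3 organoids by 6.06 on the log2 scale.

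Across the 8 libraries the members fell along a few patterns. Pearson's r of log2 CPM between members was 0.436 to 0.990 over 28 pairs. *Cd274*, *Slc46a2*, *Trpm2*, *Tbata* and *Crip3* correlated at 0.890 to 0.990 among themselves, *Enpep* and *Vcam1* at 0.913 with each other, and *Enpep* or *Vcam1* with the former 5 at 0.436 to 0.726. *Ly75* lay between these patterns, at 0.742 (*Crip3*) to 0.948 (*Cd274*) with the 5. With *Enpep* and *Vcam1* it correlated at 0.779 and 0.784. These values describe 8 points that fall into 4 groups, with *in vivo* TECs high for every member, and carry no p. Of 9018 genes with a mean of at least 10 CPM, those with the most similar pattern were *Ccnl1* (r = 0.997) and *Trpm2* itself (0.990) for *Tbata*, and *Ccnl1* (0.996) and *Nefm* (0.994) for *Trpm2*. For *Slc46a2* they were *Slc5a9* (0.995) and *Lgi2* (0.993), for *Crip3* *Fam174b* (0.987) and *Ldhb* (0.984), and for *Cd274* *Ccdc171* (0.992) and *Kremen2* (0.991). The nearest to *Vcam1* were *Rigi* (0.996) and *Msc* (0.994), to *Ly75* *Snx30* (0.993) and *Sf3b1* (0.990), and to *Enpep* *Dipk1a* (0.983) and *Zfyve16* (0.972).

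Other genes of cortical TECs (12 genes, among them Foxn1 and products that attract or instruct thymocytes) were measured beside the members. For D7 organoids over 2D cultures, 9 were higher and 3 lower, beside 24.4% and 21.1% of all genes, and the median log2 fold change was 3.41. *Psmb11*, which encodes a catalytic subunit of the thymoproteasome, had 858 and 570 counts in D7 organoids and 3 and 3 in 2D (adjusted p = 3.8e-12). The chemokine gene *Cxcl12* was higher by 5.43 on the log2 scale (SE 0.19, adjusted p = 2.4e-12). The Notch ligand gene *Dll4* had 79 and 49 counts in D7 organoids and 3 and 0 in 2D (adjusted p = 1.2e-06). The 3 lower genes were the keratins *Krt8* (log2 fold change -3.68) and *Krt18* (-2.78) and the protease gene *Ctsl* (-1.33). For D3 organoids over 2D cultures, 4 were higher and 4 lower, beside 19.3% and 19.1% of all genes. For D7 over D3 organoids 9 were higher and none lower, with a median of 1.45, beside 10.9% and 9.91% of all genes. *Foxn1* had 249 ± 35.6 CPM *in vivo*, 6.69 ± 2.63 CPM in 2D, 9.22 ± 0.607 CPM in D3 organoids and 72.9 ± 17.4 CPM in D7 organoids (SD, n = 2 each). It rose from D3 to D7 organoids by 2.97 on the log2 scale (SE 0.25, adjusted p = 4.5e-07). *Cxcl12*, *Kitl*, the gene of stem cell factor, and *Krt8* were not called in that step, with log2 fold changes from D3 to D7 of -0.03 (SE 0.14, adjusted p = 0.92), 0.00 (SE 0.15, adjusted p = 0.99) and -0.35 (SE 0.17, adjusted p = 0.16). In D3 organoids *Cxcl12* and *Kitl* were 5.46 and 3.64 higher than in 2D on the log2 scale.

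Genes known to be induced by interferon or NF-kB, signals that also raise *Cd274* and *Vcam1* elsewhere, were counted over the 13 of 14 that were tested. For D7 organoids over 2D cultures 3 were higher and 4 lower, and for D3 organoids over 2D cultures 1 was higher and 7 lower, with medians of -0.04 and -0.95. The interferon-induced chemokine gene *Cxcl10* was the lowest in both (log2 fold change -3.73 and -4.03), followed by *Isg15* (-2.39 and -2.68). From D3 to D7 organoids, 7 were higher and none lower, with a median of 0.55, beside 10.9% of all genes higher and 9.91% lower. The NF-kB subunit gene *Nfkb2* rose by 1.38 on the log2 scale (SE 0.20, adjusted p = 0.00018), *Relb* by 1.34 (SE 0.31, adjusted p = 0.0049) and *Gbp2*, which encodes an interferon-induced GTPase, by 1.35 (SE 0.42, adjusted p = 0.032). *Nfkb2* was lower in D3 organoids (-0.85, adjusted p = 0.0031) and higher in D7 organoids (0.53, adjusted p = 0.034), and *Relb* was lower in D3 organoids (-1.39, adjusted p = 0.0017) with -0.04 in D7 organoids (adjusted p = 0.92). *Icam1*, the gene of another adhesion molecule, was higher than in 2D in D3 (0.48, adjusted p = 0.046) and D7 organoids (1.04, adjusted p = 0.00019).

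Relatives and binding partners of the members did not share one direction. Of the 13 of 20 that were tested, 6 were higher and 3 lower in D7 organoids than in 2D cultures, and 2 rose and 2 fell from D3 to D7 organoids. The shares of all genes tested were 24.4% higher and 21.1% lower in the first comparison, and 10.9% and 9.91% in the second. *Anpep*, another membrane aminopeptidase, was higher than in 2D cultures by 3.96 in D7 organoids (SE 0.45, adjusted p = 1.6e-06), where *Enpep* did not pass. *Slc46a3*, a lysosomal paralogue of *Slc46a2*, was higher by 3.56 (SE 0.84, adjusted p = 0.0024). *Cd276*, which encodes B7-H3, another molecule of the family of PD-L1, was lower (log2 fold change -1.91, SE 0.26, adjusted p = 1.7e-05), opposite to *Cd274*. *Itgb1*, an integrin subunit gene, was lower as well (-1.88, SE 0.15, adjusted p = 2.7e-08).

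Markers of medullary TECs went the other way between D7 organoids and 2D cultures. Of 8 tested (of 10 listed), 1 was higher and 6 lower, at a median log2 fold change of -3.22, and none was higher and 7 lower in D3 organoids than in 2D cultures. Among the 6 lower genes, the largest differences were those of *Ccl21a*, a chemokine gene of the medulla (-8.43, SE 0.34, adjusted p = 8.4e-12), and *Krt14*, a basal keratin (-5.31, SE 0.19, adjusted p = 2.7e-12). *Ccl21a* had 734 and 765 counts in 2D and 4 and 1 in D7 organoids, so the size of its fold rests on few counts. From D3 to D7 organoids, in which all 8 members rose, 4 medullary genes were higher and 2 lower, beside 10.9% and 9.91% of all genes. *Krt5* fell by 1.80 on the log2 scale (SE 0.18, adjusted p = 3.4e-06). Markers of other cells moved in the same step. Of the 5 mesenchymal genes tested, 3 were higher in D7 than in D3 organoids and none lower, namely *Dcn* (log2 fold change 3.34, adjusted p = 1.2e-05), *Col3a1* (3.34, adjusted p = 0.0095) and *Lum* (2.35, adjusted p = 0.025). Of the 2 myeloid genes tested, *Lyz2*, with 2 and 0 counts in D3 and 98 and 52 in D7 organoids, was called higher (adjusted p = 0.0013) and *Cd14* was not (1.68, adjusted p = 0.10). *Col1a1* (0.55, adjusted p = 0.63) and *Col1a2* (-0.83, adjusted p = 0.16) were not called. In D7 organoids *Pdgfra* was at 0.533 CPM, and *Itgam*, *Itgax*, *Csf1r*, *Adgre1* and *Flt3* had no counts. Whether such cells were present, and their part in the members' values, was not tested.

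**Figure D4:**
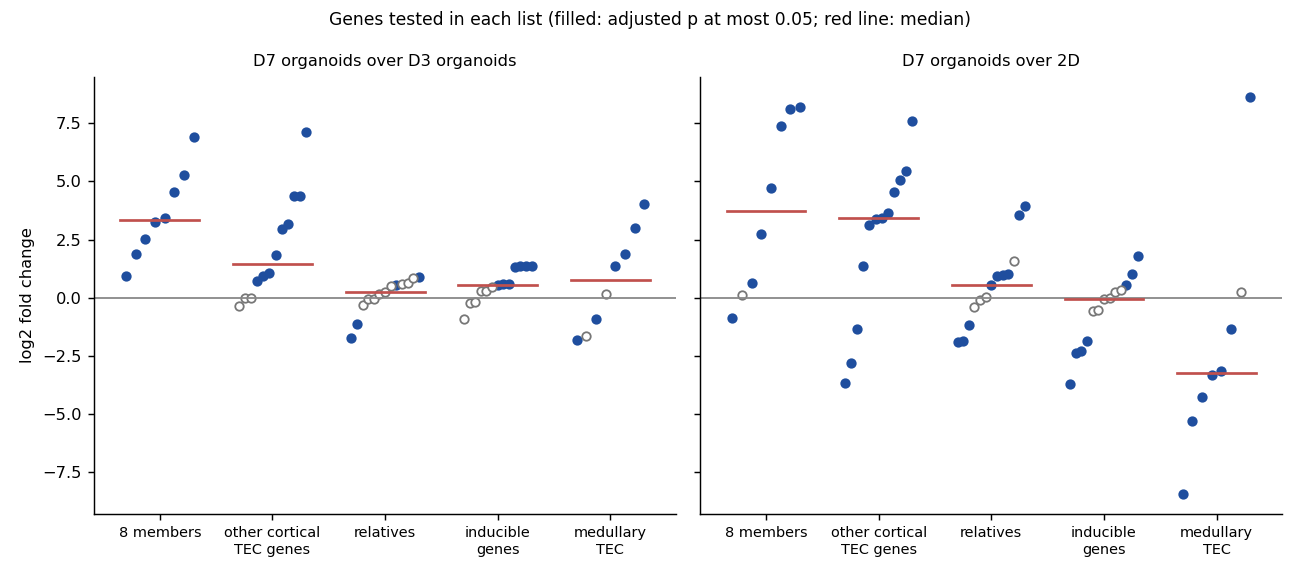
Log2 fold change of every tested gene in the 8 members and 4 other lists, for D7 over D3 organoids (left) and D7 organoids over 2D cultures (right). Points are genes ordered by value, filled at an adjusted p of at most 0.05, and red lines are medians. Over 2D cultures the medians were 3.74 for the members, 3.41 for other cortical genes and -3.22 for medullary genes.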

How the data were processed

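TECs were sorted from embryonic thymi, and 8 bulk libraries (4 groups of 2) were made with the QuantSeq 3′ kit for a NextSeq 500 run. Alignment by the authors was to GRCm39 with STAR, and the deposited values are raw counts per Ensembl gene, with no normalization. The annotation release, the strand used in counting and the handling of multiply mapped reads are not given in the sources used here. Of 56923 identifiers, 56236 matched symbols in the reference annotation and 687 did not.

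Genes were tested where 3 or more libraries reached 1 CPM (14504 genes, including all 8 members). The test was the quasi-likelihood test of edgeR 4.0.16 (R 4.3.3) with TMM scaling, in one model of all 8 libraries with group as the only term, and p-values were adjusted by the Benjamini-Hochberg method over all genes tested (threshold 0.05). With 2 libraries against 2, an exact two-sided permutation test cannot go below p = 0.333, so the calls rest on a spread estimated across genes. Depth was 5084715 to 7612532 counts, and a group with at most 3 counts in each library was taken as at the floor. Folds against a group with no counts were computed over 3 counts in the group as a whole. Count ratios have exact conditional 95% intervals, which cover counting error alone. The SE of a log2 fold change is its absolute value divided by the square root of the test's F statistic. It is approximate, and can be smaller than the counting error of a group with few counts. Alternatives were DESeq2 1.42.0, limma-voom (limma 3.58.1), other scalings and filters, a block for replicate number, and leaving out each library. The procedure was tested on simulated data.

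The members and gene lists were chosen with earlier results of these data known. Named are all members, the 2 genes most like each, list genes called between cultures (largest changes first) and overlapping genes. Other genes named in the checks of cell types are listed markers. Values of some listed marker genes are not reported here.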

Additional observations from a re-analysis of the deposited data

How the results depend on the processing

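With every library kept, 211 of 213 values of the members in the comparisons between cultures kept their direction and their side of the threshold. The exceptions were *Cd274* (called higher in D3 organoids than in 2D with no scaling beyond library size, 1.09) and *Crip3* (D3 organoids over 2D with limma-voom, 2.53, not called). Members called numbered 7, 4 and 8 for D7 organoids over 2D, D3 organoids over 2D and D7 over D3 organoids, and 7, 3 and 7 with a filter at a mean of 10 CPM, which left out *Enpep*. With each library left out in turn, 183 of 192 values held, 6 fell short of the threshold and 3 changed sign, and the members called ranged from 6 to 7, 3 to 4 and 7 to 8. The signs that changed belonged to uncalled values, with a range of -0.68 to 0.60 for *Enpep* in D7 organoids over 2D and of -0.89 to 1.25 for *Tbata* in D3 organoids over 2D. All genes called between D7 and D3 organoids, 3012 in the reported fit, ranged from 1217 (without D7 replicate 2) to 3414, with 1674 without D3 replicate 1. The median log2 difference of the members between *in vivo* TECs and D3 organoids, 5.67, was 6.03 with limma-voom and 5.48 to 6.45 with a library left out, and that between *in vivo* TECs and 2D, 6.04, was 5.80 to 6.33. The cause of these shifts was not tested. A fit with the replicate block called 7, 4 and 8 members and 6911, 5919 and 3587 genes in all. The replicate numbers could not be shown to pair the samples, since the deviations of same-numbered libraries correlated at 0.0257 to 0.132 over 6 pairs of groups. Depth limits the values of *Enpep* in organoids and of *Trpm2*, *Tbata* and *Crip3* in 2D and D3 cultures, which rest on few counts.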
